A study of Homo sapiens with 4 samples.

Results

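The genes described here are 37 genes known to be induced by oestrogen in breast cancer cells, looked up by symbol in a table of 58336 genes counted in gastric cancer cells. Each of the 37 symbols matched 1 protein-coding gene, so no choice between repeated symbols was needed. The set was defined by what is known from breast cancer cells, although it was chosen with earlier results of these data known. The members cover secreted factors, transcription factors, cell cycle regulators, membrane proteins and metabolic enzymes, and what they share is a response to oestrogen in another tissue.

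Estradiol, the main oestrogen, enters cells and binds the nuclear receptors ESR1 and ESR2. In breast cancer cells the hormone-bound ESR1 settles on oestrogen response elements, many of them far from the genes they control, and recruits coactivators, so that genes such as GREB1, CCND1 and MYC are transcribed more and the cells divide. Pioneer factors such as FOXA1 and GATA3 open the chromatin at these sites. Gastric epithelium is not a classical oestrogen target tissue.

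Gene expression was measured by RNA sequencing in HGC-27, an undifferentiated gastric carcinoma line, and in AGS, a gastric adenocarcinoma line with epithelial features, both labelled wild type. For each line there was 1 control library, with no hormone named in its labels, and 1 library from cells given 10 nM estradiol for 1 day, so the study holds 4 libraries of 24597379 to 28734374 counted reads. Nothing in the labels says whether the medium was free of hormone or whether libraries came from separate experiments, and p-values therefore speak of the spread between these libraries alone. All 9 epithelial markers, among them EPCAM and the keratins KRT8, KRT18 and KRT19, were higher in AGS, where their summed level was 6365 to 6678 CPM (read counts scaled to library size) against 72.7 to 77.5 in HGC-27. Of 7 mesenchymal markers, 6 were tested and all 6 were higher in HGC-27. The summed level of the 7 was 2072 to 2097 CPM there against 5.0 to 5.57 in AGS. CDH2, too scarce to be tested, went the other way, with 5 counts in AGS control and 11 in AGS estradiol. It had 4 and 0 in the HGC-27 pair. Of 9 gastric and intestinal markers, 5 were higher in AGS and 0 in HGC-27, while GKN1 and CDX1 had 0 counts in all 4 libraries. Of 6 leukocyte markers, CD3E had 0 counts throughout and PTPRC at most 22 in any library. The summed leukocyte level was 243 and 181 CPM in AGS control and estradiol, nearly all from LYZ, a lysozyme that epithelial cells also make, and 5.08 and 5.15 in HGC-27. LYZ was called lower with estradiol by edgeR (log2 change -0.43 ± 0.08 SE, adjusted p = 0.000208) but not by DESeq2. It had at most 2 counts in an HGC-27 library, so that change rests on the AGS pair. Of 8 fibroblast and endothelial markers, 6 were tested and all 6 were higher in HGC-27, with a summed level of 4100 to 4306 CPM against at most 12.9 in AGS. Over all genes tested, 35.7% were higher in AGS and 41.5% in HGC-27. The part of these markers in the results was not tested. In bulk RNA, fewer cells of a type and less RNA per cell cannot be told apart.

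The genes fell into those made in both lines, those made in 1 line and those scarcely made at all. At a level of at least 1 CPM in both libraries of a line, 23 of the 37 were detected in AGS and 26 in HGC-27. The share of all protein-coding genes that reached this level was 56.4% in AGS and 60.6% in HGC-27. Detection in both lines was seen for 22 genes. AGR2 was detected in AGS alone, CA12, OLFM1, STC2 and WISP2 in HGC-27 alone, and 10 genes in neither. The plot of levels by role shows these classes.

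**Figure D1:**
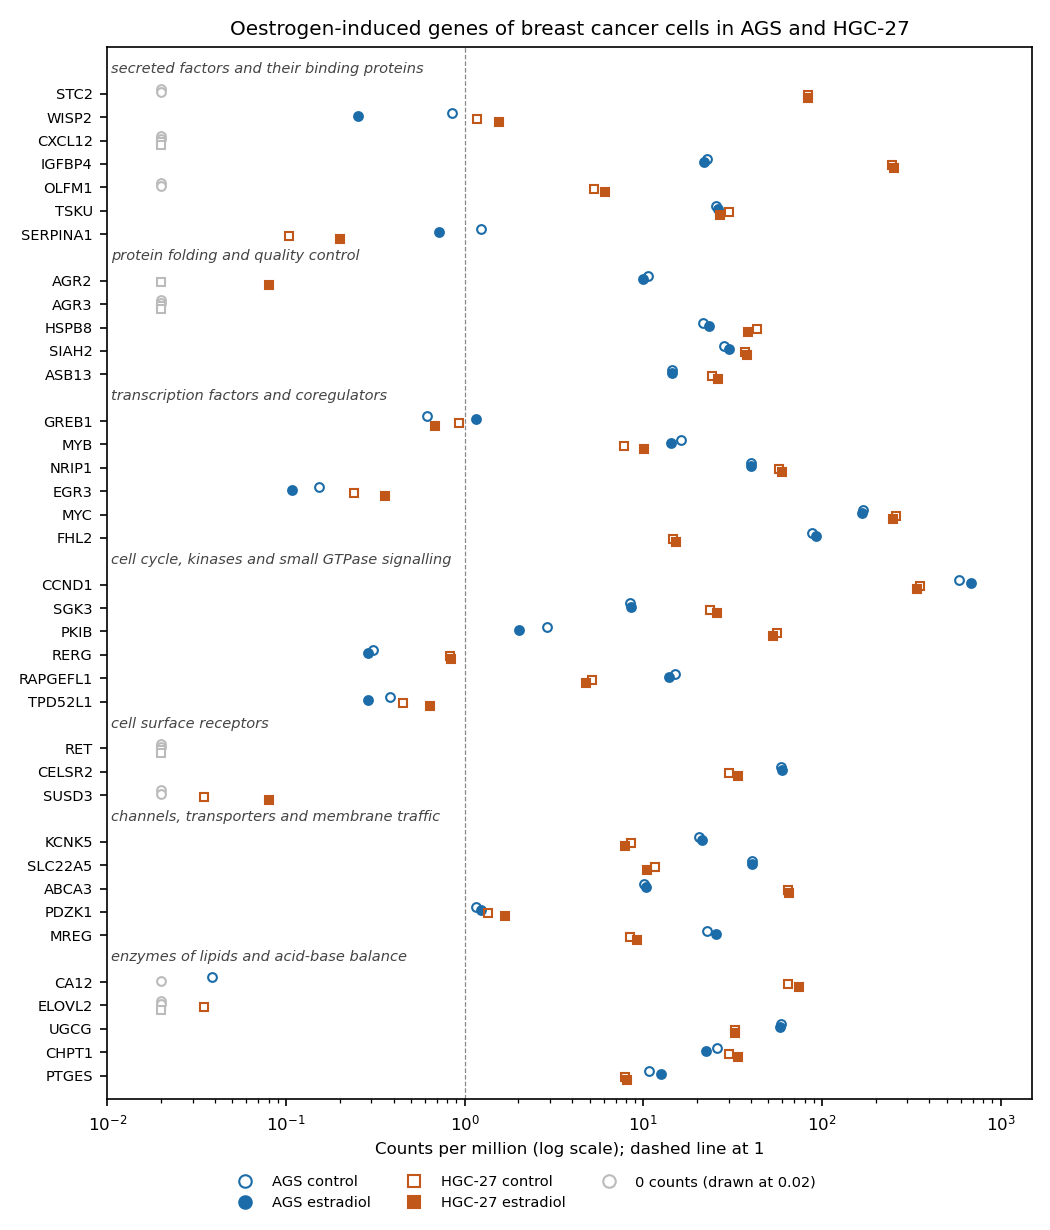
Level of each of the 37 genes in each library, grouped by role in CPM on a log scale with a dashed line at 1 CPM. Open symbols are controls, filled symbols estradiol libraries, and grey symbols libraries with 0 counts. STC2, CA12 and OLFM1 stand at or near 0 in AGS only and AGR2 in HGC-27 only, while open and filled symbols of a line lie close together.

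Compared per unit of gene length, as TPM (counts scaled for gene length and library), CCND1 was the highest of the 37 in AGS and IGFBP4 in HGC-27. In AGS the order began with the cyclin CCND1 (mean 442 TPM over 2 libraries), the transcription factor MYC (188 TPM), the LIM-domain coregulator FHL2 (45.6 TPM) and the ceramide glucosyltransferase UGCG (42.5 TPM). In HGC-27 it began with IGFBP4, which binds insulin-like growth factors outside the cell (384 TPM), followed by MYC (286 TPM), CCND1 (243 TPM) and PKIB, an inhibitor of protein kinase A (53.6 TPM). CCND1 stood at the 99.2th percentile of protein-coding genes in AGS and IGFBP4 at the 98.9th in HGC-27. CCND1, MYC and IGFBP4 together made up 55.8% to 62.3% of the summed CPM of the 37 genes in any library. At the other end, CXCL12, the ligand of CXCR4, the receptor tyrosine kinase RET and AGR3, a paralog of AGR2, had 0 counts in every library. ELOVL2, an elongase of polyunsaturated fatty acids, had 1 count in total and the membrane protein SUSD3 had 3. A total of 0 counts allows up to 3, and 3 counts correspond to 0.104 to 0.12 CPM in these libraries.

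The 4 genes with ample reads in a single line were the clearest contrast in the set. For these genes the 250 bases before the RefSeq transcription start are shown, on GRCh38.p14 and in the direction of transcription, so that a reader can compare the DNA at the start of genes that are read in 1 line and silent or nearly so in the other. STC2 lies at chr5:173328415-173328664 (minus strand), CA12 at chr15:63381847-63382096 (minus strand), OLFM1 at chr9:135075255-135075504 (plus strand) and AGR2 at chr7:16805000-16805249 (minus strand). Capitals mark the half-site of the oestrogen response element, GGTCA or its complement TGACC.
STC2: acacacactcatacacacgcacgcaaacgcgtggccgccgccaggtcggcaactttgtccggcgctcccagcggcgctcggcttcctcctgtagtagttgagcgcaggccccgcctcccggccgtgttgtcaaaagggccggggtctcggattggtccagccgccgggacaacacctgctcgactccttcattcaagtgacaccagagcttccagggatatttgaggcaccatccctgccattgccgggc
CA12: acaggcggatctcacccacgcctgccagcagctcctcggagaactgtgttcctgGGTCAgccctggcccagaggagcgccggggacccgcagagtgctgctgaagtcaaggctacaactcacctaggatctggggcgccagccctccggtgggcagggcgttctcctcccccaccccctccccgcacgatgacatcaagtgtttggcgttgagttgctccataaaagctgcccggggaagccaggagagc
OLFM1: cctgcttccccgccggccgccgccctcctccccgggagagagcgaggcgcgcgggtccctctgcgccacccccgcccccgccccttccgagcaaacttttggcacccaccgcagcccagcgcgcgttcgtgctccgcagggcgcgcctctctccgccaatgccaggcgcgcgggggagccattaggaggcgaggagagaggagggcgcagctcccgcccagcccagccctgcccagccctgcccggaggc
AGR2: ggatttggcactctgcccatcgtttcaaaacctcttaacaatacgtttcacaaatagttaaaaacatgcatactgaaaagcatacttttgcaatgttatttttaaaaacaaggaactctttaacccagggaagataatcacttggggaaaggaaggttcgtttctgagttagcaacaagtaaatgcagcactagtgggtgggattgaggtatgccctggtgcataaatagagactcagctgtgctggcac
The AGR2 stretch held 3 CpG pairs and 40.4% G and C, against 29 pairs and 76.8% in OLFM1, 22 pairs and 63.6% in STC2 and 13 pairs and 64.8% in CA12. The half-site occurred once, in CA12. For all 4 genes the RefSeq start lies inside the span that the deposited table gives to the gene.

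RefSeq promoters of 300 bases (250 before and 50 after the start) were found for 30 of the 37 genes and searched on both strands. CCND1, EGR3, GREB1, MYC, RERG, SGK3 and WISP2 had no entry. The full element, which is GGTCA followed by any 3 bases and then TGACC and so contains the half-site on each side, was found in 0 of the 30, and in 20 of all 34796 promoters (0.0575%). With 1 mismatch allowed in its 10 defined bases it was found in 0 of the 30 and in 0.816% of all. With 2 mismatches it was found in 2 of the 30 (6.67%) and in 10.3% of all. These closest sites are shown with the bases that match the element in capitals.
SERPINA1: GGgCActgTGcCC
ELOVL2: GGgCAgaggGACC
The SERPINA1 site starts 45 bases before the transcription start (chr14:94390668-94390680, minus strand), and the ELOVL2 site begins at the start itself (chr6:11044293-11044305, minus strand). The half-site was present in 10 of the 30 (33.3%, against 37.3% of all promoters), and the AP-1 site TGANTCA in 0 (7.73% of all). The GC box GGGCGG was present in 23 of the 30 (76.7%, against 44.9% of all). A ratio of observed to expected CpG pairs of at least 0.6 was seen in 21 of the 30 (70.0%, against 48.8% of all). The 30 are 1 promoter per protein-coding gene. The 34796 are all distinct promoter sequences given and outnumber the 19883 protein-coding genes, so the shares compare unlike sets. The part of this in the shares was not tested. A match describes letters in this window, and the absence of a match says nothing of sites elsewhere.

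The comparison of the lines asked how the basal supply of these genes differs between an epithelial and an undifferentiated gastric cancer line. Of the 37 genes, 31 passed the filter on low counts. Of these, 27 differed between AGS and HGC-27 (edgeR quasi-likelihood test with treatment in the model, Benjamini-Hochberg adjusted over 18278 genes), 12 higher in AGS and 15 higher in HGC-27. Among all tested genes 77.2% differed, 35.7% higher in AGS and 41.5% higher in HGC-27, so the lines are far apart in general and a share of this size is not particular to these genes. DESeq2 called 24 of the 31, 12 in each direction, and 68.6% of all tested genes. A difference of at least 8-fold was called for 6 of the 31 and for 21.2% of all tested genes. The median log2 difference of the 31 in size was 1.34, against 0.89 over all tested genes. Of the 31 genes, 7 had a mean count under 10 in 1 line and passed through the other line's reads, so that the count of differing genes cannot be read as a property of the set.

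STC2, a secreted glycoprotein hormone of calcium and phosphate balance (ENSG00000113739, chromosome 5, 173314713 to 173329503), had 2429 counts in HGC-27 control, 2096 with estradiol and 0 in both AGS libraries. It was at least 1499.7-fold higher in HGC-27, taking 3 counts over both AGS libraries as the floor. STC2 passed the filter through its HGC-27 reads alone. Its adjusted p (1.07e-179 in edgeR, 0.0014 in DESeq2) is therefore no separate support for the difference. CA12, a membrane carbonic anhydrase that acidifies the surroundings of the cell (ENSG00000074410, chromosome 15, 63321378 to 63382161), had 1861 counts in HGC-27 control and 1858 with estradiol, against 1 and 0 in the AGS pair. Its pooled ratio was 3698, with a 95% counting interval of 663 to 146089. AGS had a single read in all. The fitted log2 difference was -11.54, and it was -13.87 without the AGS control, which leaves AGS at 0, and -10.64 without the AGS estradiol library. OLFM1, a secreted olfactomedin-domain glycoprotein (chromosome 9, 135075422 to 135121179), had 0 counts in both AGS libraries and 153 in each HGC-27 library, at least 101-fold higher there. Reads of these 3 genes thus came from HGC-27 with or without the hormone.

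AGR2, a disulfide isomerase of the endoplasmic reticulum needed for mucin folding (ENSG00000106541, chromosome 7, 16791811 to 16833433), showed the opposite pattern. It had 277 and 275 counts in the AGS libraries, and 0 and 2 in the control and estradiol libraries of HGC-27. The pooled ratio was 278 (counting interval 76.5 to 2298). Its fitted log2 difference was 7.95, and it was 6.92 without the HGC-27 control and 11.15 without the HGC-27 estradiol library, which leaves HGC-27 at 0. A fitted value against a line at 0 depends on the prior count and is no bound. SERPINA1, the protease inhibitor alpha-1 antitrypsin, was also higher in AGS at a low level, with 32 counts in AGS control and 20 in AGS estradiol, and 3 and 5 in the HGC-27 pair. Its log2 difference was 2.65 ± 0.71 SE (adjusted p = 0.000322 in edgeR and 0.0141 in DESeq2), and it passed the filter through its AGS reads.

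IGFBP4, PKIB, ABCA3, SGK3 and RERG were also higher in HGC-27. IGFBP4 (chromosome 17, 40443461 to 40457731) stood at 22.8 CPM in AGS control and 21.9 in AGS estradiol, and at 247 and 254 CPM in the matching HGC-27 libraries. The fitted log2 difference, AGS minus HGC-27, was -3.49 ± 0.07 (SE, edgeR adjusted p = 1.94e-180). PKIB (chromosome 6, 122471917 to 122726373) stood at 2.88 and 2.02 CPM against 56.1 and 53.1, a difference of -4.48 ± 0.12. For both genes the libraries of the lines lay far apart and did not overlap. The lipid transporter ABCA3 differed by -2.67 ± 0.09, the serine/threonine kinase SGK3 by -1.55 ± 0.12 and the small GTPase RERG by -1.47 ± 0.63. RERG rested on 8 counts in each AGS library against 24 in HGC-27 control and 21 with estradiol. Its adjusted p was 0.0281 in edgeR and 0.07 in DESeq2, and it was 0.141 in edgeR without the HGC-27 control.

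The genes higher in AGS apart from AGR2 and SERPINA1 were expressed in both lines. FHL2 (chromosome 2, 105357712 to 105438513) stood at 88.1 and 92.3 CPM in AGS and 14.6 and 15.2 in HGC-27, a log2 difference of 2.60 ± 0.08 (edgeR adjusted p = 5.58e-112). The carnitine transporter SLC22A5 differed by 1.87 ± 0.10 and RAPGEFL1, a protein related to Rap exchange factors, by 1.54 ± 0.16. The melanosome transport protein MREG differed by 1.44 ± 0.12, the potassium channel KCNK5 by 1.34 ± 0.13 and CELSR2, an adhesion receptor of the cadherin family, by 0.90 ± 0.08. CCND1 itself was higher in AGS by 0.86 ± 0.05 and MYC lower by a difference of -0.60 ± 0.05. Smaller differences toward HGC-27 were seen for the corepressor NRIP1 (-0.54 ± 0.07), the small heat shock protein HSPB8 (-0.86 ± 0.09), the ubiquitin ligase SIAH2 (-0.37 ± 0.09) and the ubiquitin ligase adaptor ASB13 (-0.79 ± 0.11). UGCG (0.84 ± 0.08), the transcription factor MYB (0.78 ± 0.14) and the prostaglandin E synthase PTGES (0.54 ± 0.15) were higher in AGS. WISP2, a matricellular protein (-1.38 ± 0.52), and CHPT1, which makes phosphatidylcholine (-0.41 ± 0.09), were higher in HGC-27 in edgeR but had adjusted p-values of 0.182 and 0.0649 in DESeq2. TSKU, GREB1, TPD52L1 and PDZK1 did not pass the test, with differences of -0.14 ± 0.09, 0.10 ± 0.52, -0.67 ± 0.68 and -0.34 ± 0.41. PDZK1, a scaffold for membrane transporters, shares 71.0% of the 31-base stretches of its longest transcript with the pseudogene PDZK1P1, so its counts are uncertain. Exons of PKIB overlap those of Z99129.3 over 13.2% of their length, and exons of SGK3 those of C8orf44 over 6.04%, with at most 12 counts for Z99129.3 and 158 for C8orf44 in any library.

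**Figure D2:**
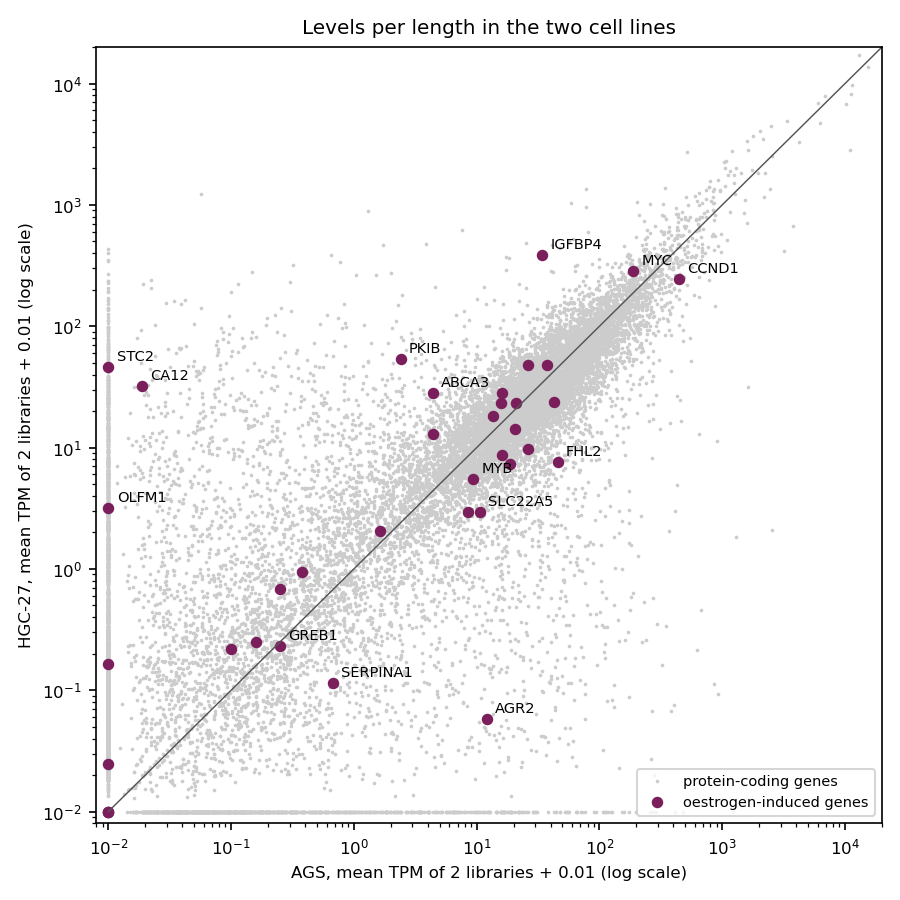
Mean TPM of the 2 libraries of HGC-27 against that of AGS for protein-coding genes (grey) and the 37 genes (purple), on log scales after adding 0.01, with the line of equal levels. STC2, CA12 and OLFM1 lie at the left edge or close to it, AGR2 at the lower right, and most others near the diagonal.

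The question put to estradiol was whether genes that answer to it in breast cancer cells change in gastric cancer cells within a day. Of the 31 tested genes, 0 were called higher and 0 lower (edgeR quasi-likelihood test blocked by line, adjusted over 18278 genes). The fit takes a change shared by both lines, so ratios of opposite sign in the lines offset each other. Among all tested genes 0.153% were called, 0.115% higher and 0.0383% lower. An unadjusted p under 0.05 was seen for 0 of the 31, against 3.24% of all tested genes, and the smallest was 0.0653, for CA12. CA12 had 1 count in AGS control and 0 in AGS estradiol, so its value rests on the HGC-27 pair. DESeq2 and limma-voom also called 0 of the 31, with 0 under an unadjusted 0.05 in each. The fitted log2 changes ran from -0.39 to 0.23 with a median of 0.03, against 0.00 over all tested genes, and 17 of the 31 lay above 0. The highest with a mean of at least 10 counts were GREB1 (0.23 ± 0.52 SE), OLFM1 (0.21 ± 0.36) and PDZK1 (0.21 ± 0.41), and the lowest were WISP2 (-0.39 ± 0.52), SERPINA1 (-0.33 ± 0.67) and PKIB (-0.15 ± 0.11). All 6 of these have few counts in at least 1 line, and none was a call. OLFM1 had 0 counts in both AGS libraries, so its value also rests on the HGC-27 pair.

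The abundant genes allow a closer bound within each line, where 1 library stands against 1 and no test is possible. Of genes with a mean of at least 100 counts in AGS, 21 belonged to the set, and 0 of them had a log2 ratio of estradiol over control of 0.32 or more in size, which is 25% higher or the matching distance lower. Of all such genes 4.95% did, 2.03% higher and 2.91% lower. In HGC-27 there were 24, of which 1, MYB, was higher by that much and 0 were lower. Of all such genes 4.28% passed, 3.21% higher and 1.07% lower. The 95% counting interval of the ratio lay wholly between -0.32 and 0.32 for 15 of the 21 in AGS and 18 of the 24 in HGC-27, and for 74.4% and 73.4% of all such genes. In AGS the interval was above 0 for 2 genes, CCND1 and MREG, and below 0 for 1, CHPT1, against 14.2% and 15.5% of all such genes. In HGC-27 it was above 0 for 4, MYB, CELSR2, CA12 and CHPT1, and below 0 for 4, TSKU, HSPB8, MYC and CCND1, against 10.8% and 14.7%. These intervals cover counting error only, not the variation between cultures.

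CCND1, the cyclin that drives cells from G1 into S phase and a textbook oestrogen target (ENSG00000110092, chromosome 11, 69641087 to 69654474), had 15270 counts in AGS control and 18998 in AGS estradiol. In HGC-27 it had 10287 in control and 8562 in estradiol. Scaled for depth, the level went from 587 to 687 CPM in AGS and from 355 to 342 CPM in HGC-27. Its log2 ratio, estradiol over control, was 0.23 (counting interval 0.20 to 0.26) in AGS and -0.05 (-0.10 to -0.01) in HGC-27, so the ratios had opposite signs. The fit over both lines gave 0.09 ± 0.05 (SE, edgeR unadjusted p = 0.0806). Nearly all of the difference in the summed level in AGS was that of CCND1. The summed level was 1303 CPM in control and 1407 with estradiol, and without CCND1 it was 716 and 720. The exons of CCND1 overlap those of a gene on the opposite strand, named ORAOV1 in the deposited table and LTO1 in the annotation, over 10.3% of their length, and the sources used here do not give whether counting used strand. ORAOV1 had 593 counts in AGS control and 745 in AGS estradiol, and 589 and 496 in the HGC-27 pair. It stood at a ratio of 0.24 (0.08 to 0.40) in AGS and -0.04 (-0.21 to 0.14) in HGC-27. Its part in the CCND1 values was not tested.

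MYC (ENSG00000136997, chromosome 8, 127735434 to 127741434), the growth-promoting transcription factor, was close in the libraries of each line, at 169 and 168 CPM in AGS control and estradiol and at 259.9 and 250.04 in HGC-27. Its ratios were -0.01 (-0.07 to 0.05) and -0.06 (-0.10 to -0.01), so that a 25% increase lies outside the counting interval in each line. MYB (ENSG00000118513, chromosome 6, 135181315 to 135219173), a transcription factor of progenitor cells, had 425 counts in AGS control and 395 in AGS estradiol. In HGC-27 it had 226 in control and 253 in estradiol. Its ratio was -0.19 (-0.40 to 0.01) in AGS and 0.37 (0.11 to 0.64) in HGC-27, the largest ratio in the set among genes of at least 100 counts. NRIP1 stood at 0.01 (-0.12 to 0.13) and 0.07 (-0.03 to 0.17), and FHL2 at 0.07 (-0.01 to 0.15) and 0.06 (-0.14 to 0.26). The oestrogen-induced transcription factors and coregulators with ample reads thus showed no common direction.

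Among the enzymes, CA12 went from 64.3 to 74.2 CPM in HGC-27, a ratio of 0.21 (0.11 to 0.30), and had 1 read in AGS control and 0 in AGS estradiol. CHPT1 had 675 counts in AGS control and 623 in AGS estradiol, a ratio of -0.20 (-0.36 to -0.05), and 871 and 854 in HGC-27, a ratio of 0.18 (0.04 to 0.32). The ratios had opposite signs and the fit over both lines was near 0. The exons of CHPT1 overlap SYCP3 on the opposite strand over 9.43% of their length, and SYCP3 had 9 to 19 counts in any library. PTGES stood at 0.21 (-0.02 to 0.44) in AGS and 0.04 (-0.24 to 0.32) in HGC-27, and UGCG at -0.02 (-0.12 to 0.08) and -0.01 (-0.15 to 0.13).

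The next genes encode secreted or surface proteins, or proteins of protein folding or membrane traffic. STC2 was level in HGC-27, with 83.9 CPM in control and 83.7 with estradiol, a ratio with a counting interval of -0.09 to 0.08. IGFBP4 stood at -0.06 (-0.22 to 0.11) in AGS and 0.04 (-0.01 to 0.09) in HGC-27. TSKU, a secreted leucine-rich proteoglycan, was at 0.04 (-0.11 to 0.20) and -0.16 (-0.31 to -0.01). HSPB8 was at 0.10 (-0.07 to 0.26) and -0.17 (-0.29 to -0.05), and AGR2 at -0.10 (-0.35 to 0.15) in AGS. CELSR2 was at 0.02 (-0.08 to 0.12) and 0.18 (0.04 to 0.32), and MREG at 0.16 (0.004 to 0.32) and 0.13 (-0.14 to 0.39). None of the ratios of these genes reached 0.32 in size in either line.

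The lines were then compared with each other. Of 20 genes with a mean of at least 100 counts in both lines, 12 had ratios of the same sign, 8 of them above 0 and 4 below. Over all such genes the share above 0 in both was 20.1% and the share below 0 in both 28.2%. Intervals past 0 that pointed the same way in AGS and HGC-27 were seen for 0 of the 20 (3.16% of all such genes). Intervals past 0 that pointed opposite ways were seen for 2, CCND1 and CHPT1 (4.86% of all). The plot of ratios in AGS against HGC-27 places the genes around the origin among the other genes.

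**Figure D3:**
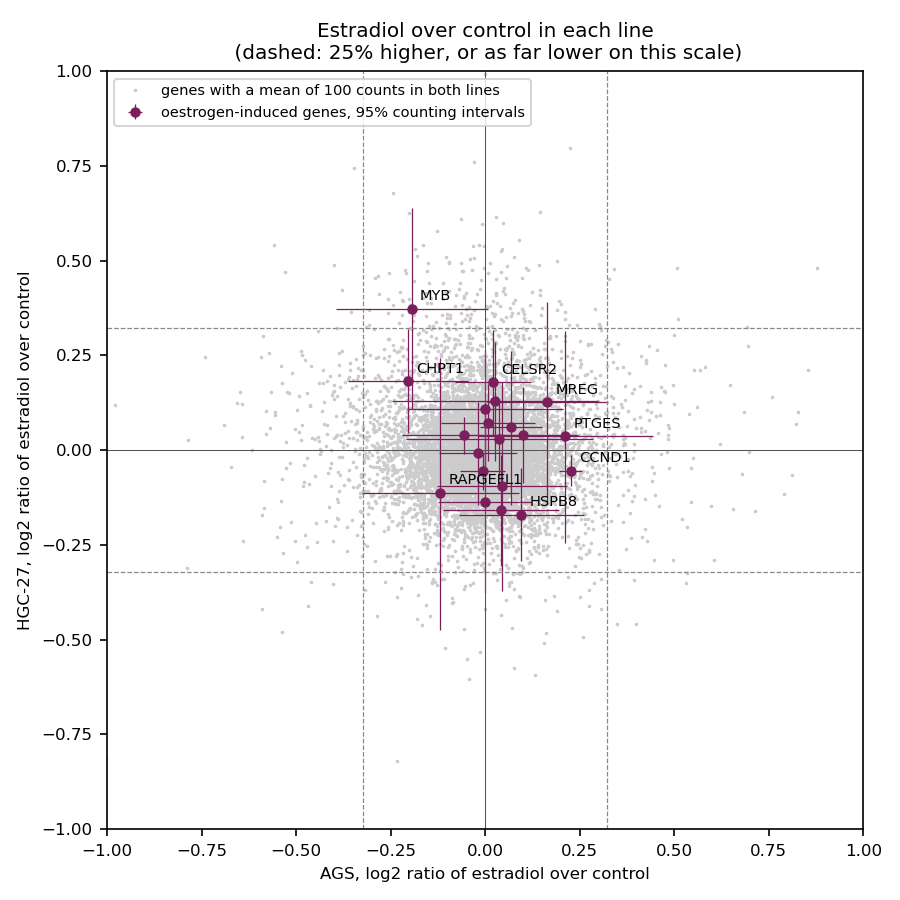
Log2 ratio of estradiol over control in HGC-27 against that in AGS for genes with a mean of at least 100 counts in both lines (grey) and the 20 of the set among them (purple, with 95% counting intervals). Dashed lines mark 0.32 and -0.32, and 8 grey genes lie beyond the axes. The purple points sit near the origin, with MYB alone past a dashed line and CCND1 the point to the right with the shortest interval.

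GREB1, a chromatin-associated coregulator and one of the most sensitive oestrogen targets in breast cancer cells (ENSG00000196208, chromosome 2, 11482341 to 11642788), was scarce in every library. It was read 16 times in AGS control, 32 times in AGS estradiol, 27 times in HGC-27 control and 17 times in HGC-27 estradiol. The ratio was 0.89 in AGS with a counting interval of 0.003 to 1.88, and -0.44 (-1.42 to 0.47) in HGC-27, so the direction differed between the lines. WISP2 was read 22 and 7 times in AGS control and estradiol and 34 and 39 times in HGC-27, with ratios of -1.67 (-3.21 to -0.46) and 0.41 (-0.29 to 1.12). PDZK1 had 30, 34, 39 and 42 counts in AGS control, AGS estradiol, HGC-27 control and HGC-27 estradiol. TPD52L1, a coiled-coil protein of vesicle traffic, had 10, 8, 13 and 16 in the same order, and EGR3, an immediate-early zinc finger factor that did not pass the filter, had 4, 3, 7 and 9. At such counts the counting intervals are wide.

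**Figure D4:**
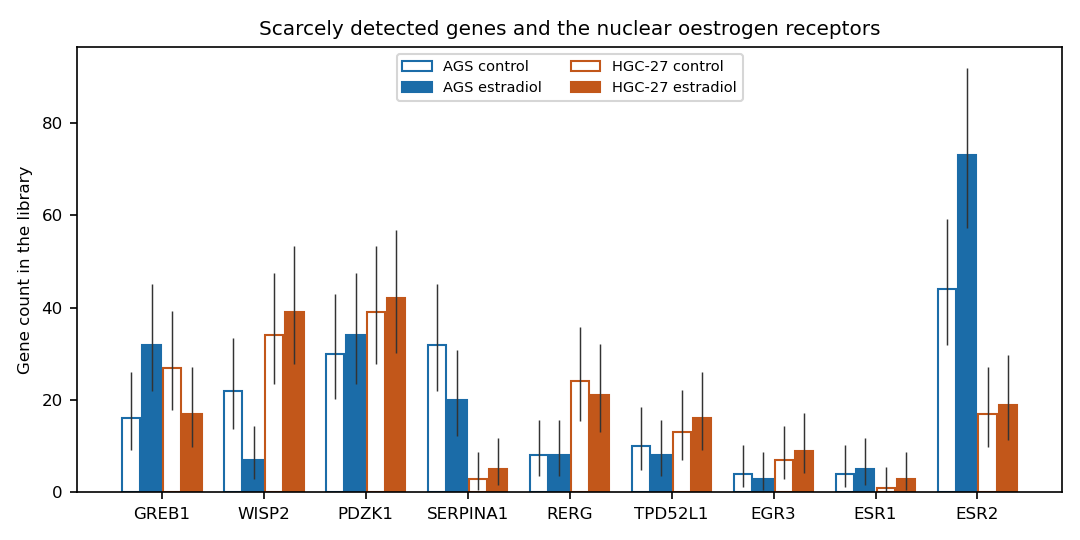
Gene counts in each library for 7 scarcely detected genes of the set and for the receptors ESR1 and ESR2, with 95% Poisson intervals as error bars and the vertical axis starting at 0. GREB1 is higher with estradiol in AGS and lower in HGC-27, with overlapping intervals, and ESR1 has at most 5 counts.

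The receptors and cofactors that act on these genes in breast cells were present unevenly. ESR1 had at most 5 counts in any library and ESR2 at most 73. ESR2, the second oestrogen receptor, had 44 counts in AGS control and 73 in AGS estradiol (ratio 0.64, interval 0.08 to 1.22), and its fitted change over both lines was 0.54 ± 0.42 (edgeR unadjusted p = 0.201). Of 17 receptors and cofactors, 15 were tested and 0 were called for estradiol, while 8 were higher in AGS and 6 in HGC-27. Among all tested genes 0.153% were called for estradiol, 35.7% were higher in AGS and 41.5% were higher in HGC-27. The largest line differences were those of GATA3, with 42 counts in HGC-27 control, 31 with estradiol and 0 in AGS (at least 24.2-fold higher in HGC-27), the membrane receptor GPER1 (-4.93 ± 0.16, higher in HGC-27) and FOXA1 (3.85 ± 0.10, higher in AGS). FOXA1 stood at 71.1 and 72.5 CPM in AGS and 5.08 and 4.83 in HGC-27. The general coactivators and corepressors were abundant in both lines, for example NCOA3 (at least 1624 counts in each library) and NCOR1 (at least 5272).

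Other genes of the oestrogen response were counted in the same fit. Of 29 further oestrogen-induced genes, 25 were tested, 0 were called for estradiol, 11 were higher in AGS and 14 in HGC-27. Over all tested genes 35.7% were higher in AGS and 41.5% in HGC-27, and 0.153% were called for estradiol. The largest line differences were those of KRT19, at 638 and 645 CPM in AGS and 1 and 2 counts in HGC-27, TFF1, at least 368-fold higher in AGS, and GFRA1, a coreceptor of RET, at least 153-fold higher in HGC-27. TFF1 had 593 counts in AGS control, 506 in AGS estradiol and 0 in HGC-27. Its ratio in AGS was -0.318 (interval -0.49 to -0.14), just short of 0.32 in size, and its fitted change was -0.317 ± 0.188 (edgeR unadjusted p = 0.093). PGR, the progesterone receptor, had 0 counts in all libraries. At a mean of 100 counts or more, 0 of 19 further genes in AGS and 1 of 17 in HGC-27 had a ratio past 0.32 in size. Of all such genes 4.95% and 4.28% did. The gene was the annexin ANXA9 (0.33 in HGC-27, interval -0.07 to 0.73, and -0.31 in AGS). The growth factor receptor IGF1R had intervals above 0 in both lines, at 0.22 (0.10 to 0.33) in AGS and 0.12 (0.02 to 0.22) in HGC-27, but did not pass the test. Both were chosen after their values were seen.

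Of 15 luminal epithelial genes, 13 were tested, 0 were called for estradiol, and 11 were higher in AGS and 2 in HGC-27. For this list and the next, the shares of all tested genes were 35.7% higher in AGS, 41.5% higher in HGC-27 and 0.153% called for estradiol. The luminal genes higher in AGS included KRT19 and EPCAM (10.56 ± 0.11). The luminal list shares KRT8, KRT18, KRT19, ELF3, CDH1, EPCAM and ESRP1 with the epithelial markers. It shares FOXA1 and GATA3 with the receptors and cofactors, and KRT19, TFF3 and XBP1 with the further oestrogen-induced genes. The counts of these lists are therefore not separate results. All 12 genes lowered by oestrogen in breast cancer cells were tested, and 0 were called for estradiol. Of these, 8 were higher in AGS and 3 in HGC-27, with TGFB2 (-6.75 ± 0.21), IL1R1 (6.37 ± 0.86) and BIK (4.18 ± 0.48) the farthest apart. Past 0.32 in size within a line at a mean of at least 100 counts there, and chosen after their values were seen, were CYP1A1 in AGS (-0.66, interval -0.88 to -0.44, against 0.12 in HGC-27), CCNG2 in HGC-27 (0.41, 0.25 to 0.58, against -0.16 in AGS) and TGFB2 in HGC-27 (0.35, 0.21 to 0.48). CYP1A1 oxidises oestrogens and other aromatic compounds, and CCNG2 is a cyclin of resting cells. The ratios of CYP1A1 and CCNG2 had opposite signs in the lines, and TGFB2 had 6 and 10 counts in AGS. The list held 6 genes with a mean of at least 100 counts in AGS and 8 in HGC-27. Past 0.32 in size were 1 of the 6 and 2 of the 8, against 4.95% and 4.28% of all such genes. In AGS the counting interval was below 0 for 4 and above 0 for 0, against 15.5% and 14.2%. In HGC-27 it was above 0 for 2 and below 0 for 0, against 10.8% and 14.7%. These shares were not tested.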

How the data were processed

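RNA sequencing counts per gene were deposited by the authors for 4 libraries as raw whole numbers with no normalization, aligned with HISAT2 and counted with featureCounts per the submitters' processing notes, which give no versions and name the build hg18. The start and end of all 37 genes in the deposited table equal GENCODE release 29 on GRCh38, so coordinates are of that build. Gene lengths, also deposited, were used for TPM. The 37 genes, the other gene lists, the tests and the alternatives were chosen with earlier results of these data known.

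The main test was that of edgeR 4.0.16 in R 4.3.3 (TMM, filterByExpr, quasi-likelihood F-test, model of cell line plus treatment, Benjamini-Hochberg over 18278 genes, threshold 0.05). DESeq2 1.42.0 and limma-voom (limma 3.58.1) were alternatives. Pairing follows from the cell line: replicate 1 is AGS and replicate 2 is HGC-27 in both groups. Across genes, Pearson's r was 0.997 within AGS, 0.997 within HGC-27 and 0.781 between the controls. The model leaves 1 residual degree of freedom, so SEs rest on a spread pooled over genes. Within a line, log2 ratios used TMM-scaled library sizes and a prior of 0.5 counts, with exact conditional binomial intervals of 95%. The tests were tried on simulated data.

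Genes were named by rule: all 37, the 3 highest and 3 lowest fitted estradiol changes, the 8 largest line differences in each direction, ratios past 0.32 (log2) at a mean of 100 counts or with intervals excluding 0 in both lines, and 3 genes per further list by line difference, with ESR1, ESR2, GPER1, PGR and TFF1. From these lists, 1 gene that the rule names is not reported here. Promoters are from RefSeq (GRCh38.p14).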

Additional observations from a re-analysis of the deposited data

Results flagged for a closer look

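Estradiol ratios that exceeded counting error in opposite directions in the lines drew attention to 2 genes. For CCND1 the log2 ratio in AGS minus that in HGC-27 was 0.28, with 0.23 in AGS and -0.05 in HGC-27. For CHPT1 it was -0.39, with -0.20 in AGS and 0.18 in HGC-27. With 1 library per condition in each line these differences were not tested.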

How the results depend on the processing

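The counts of genes called for estradiol stayed at 0 in each direction with DESeq2 size factors, without a filter, in DESeq2, in limma-voom and with no replicate block, that is, unpaired. The number higher in AGS was 12 in every fit, and the number higher in HGC-27 ran from 12 in DESeq2 to 15, with 13 to 15 when each library was left out in turn. The median estradiol change of tested genes was 0.0322, against 0.0457 in DESeq2, 0.0035 without replicate 2 (HGC-27) and 0.0398 without replicate 1 (AGS), and the cause was not tested. With no replicate block it was 0.0305. In HGC-27 alone the changes of WISP2 (0.41), SERPINA1 (0.86) and GREB1 (-0.44) reversed, against -1.67, -0.75 and 0.89 in AGS alone. With a minimum mean of 30 counts, 1 gene (PKIB) was lower past 0.32 (log2) in AGS and 2 (MYB and WISP2) were higher in HGC-27, and at 1.5-fold 0 were higher in HGC-27. RERG lost its line call with no filter, in DESeq2 and without 3 of the libraries in turn (adjusted p up to 0.141). Leaving out a library in the line comparison used cell line alone as the model, and the lone library was taken to vary like the other line. Depth limits GREB1, WISP2, PDZK1, SERPINA1, RERG, TPD52L1 and EGR3, whose counting intervals are wide.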
